A study of Mus musculus with 20 samples.

Results

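The comparison described here is that of untreated with dimethyl sulfate (DMS) treated 18S ribosomal RNA, in the libraries made outside the study's Mn experiment. These are 16 of the 20 samples of the series, 8 untreated and 8 treated, and they were chosen by the names in the deposited table, which gives each DMS library its own untreated control library. All came from MEF, female mouse embryonic fibroblasts of an F1 strain labelled 129S1/CastEiJ x 129S1. The treated group had 0.5% DMS for 5 min on living cells before quenching, the untreated group had none, and RNA of both was reverse transcribed with primers for 18S rRNA. In the sample titles reverse transcription comes in 4 kinds, given as SSIII, as AMV, as TGIRT-II and as Zhao, each with letters A and B, and what Zhao stands for is not stated. The table does not say which library is which of these, so no enzyme is assigned to any value, and the 8 pairs of libraries are numbered 1 to 8 here. Cells were grown on duplicate plates per the labels, and nothing says that the 8 pairs came from 8 cultures. The p-values thus measure the spread between libraries, some of which may share RNA and, by the letters, a kind of reverse transcription.

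DMS methylates adenine and cytosine on the face used for base pairing, so that bases held in a helix or covered by protein are largely spared. A reverse transcriptase that meets such a methyl group may end its cDNA there, which is read as a stop, or pass it with a wrong base, which is read as a mutation. The 18S rRNA forms the core of the small ribosomal subunit, has a well-known fold and also carries natural base modifications, some of which stop or mislead reverse transcriptases without any chemical. It therefore serves as a test RNA for probing methods.

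At each position the table gives a stop fraction and a mutation fraction, written here in percent, and a difference is DMS minus untreated in percentage points. Positions 1 to 1776 were compared, up to the first gap in the stop values, of 1840 in the table, whose own numbering is used. No bases were analysed here, so adenines and cytosines were not set apart from the other bases, and no sequence is shown. The numbers of reads are not given in the sources used here, so depth is unknown and counting error cannot be given. The mean over positions lay between 0.443% and 1.11% for stops and between 0.255% and 0.851% for mutations in the 16 libraries.

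Several libraries stood apart. The names of the libraries have 3 stems, called name series X (pairs 1 to 4), Y (pairs 5 and 6) and Z (pairs 7 and 8). Values at exactly 0 made up 25.2% of stop and 33.7% of mutation values in the untreated library of pair 2 and 26.6% and 27.8% in that of pair 3. The next highest shares were 16.6% and 12.95%, both in the DMS library of pair 6. In the untreated libraries of series Y the mean mutation fraction was 0.694% and 0.693%, against 0.255% to 0.319% in the other untreated libraries. It was raised in the DMS libraries of series Y too, at 0.793% and 0.851% against 0.290% to 0.394% in the other DMS libraries. The untreated libraries of series Y were also high where DMS acted. Over 24 leading values (the 12 largest responses of each readout, given further on), the untreated library of pair 5 was the highest of the 8 untreated libraries at 20, and that of pair 6 at 2. The untreated value was 25.1% of the DMS value of the same pair in the median for pair 5 and 15.7% for pair 6, and it lay between 3.61% and 9.16% for the other 6 pairs. What gave series Y these values was not tested. The numbers of positions called and the leading positions are also given without it, the other counts only over all 8 pairs.

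**Figure D1:**
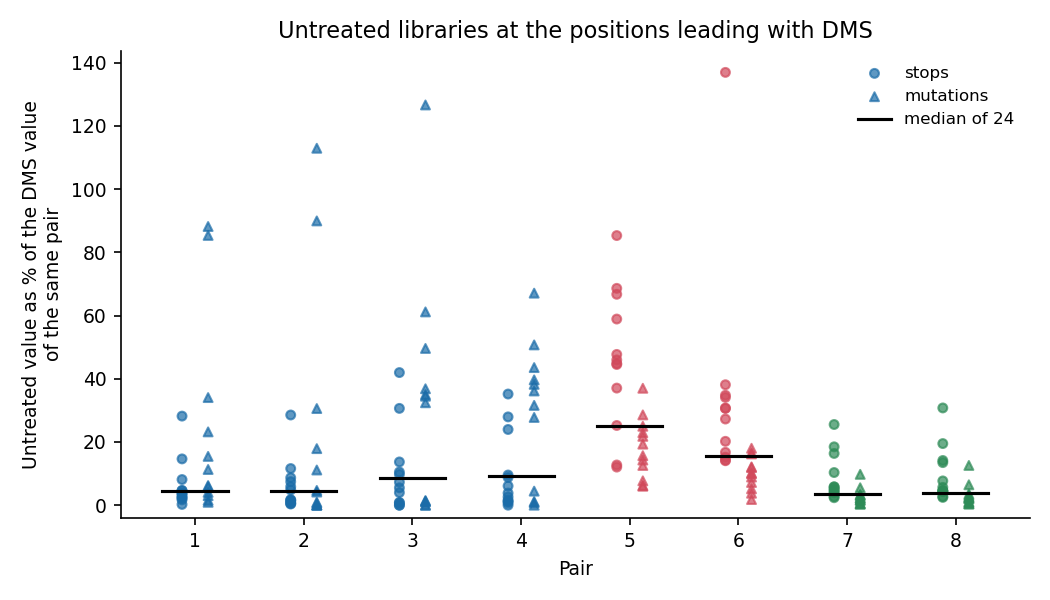
Untreated values as a percent of the DMS value of the same pair, 1 point for each of the 24 leading values, by pair, with the median as a bar. The bars of pairs 5 and 6 (name series Y) stand at 25.1% and 15.7%, and those of the other 6 pairs between 3.61% and 9.16%.

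DMS raised stops at 148 of 1776 positions (8.33% of those tested) and lowered them at 29 (1.63%), by limma on log2(percent + 0.1) with the pair as a block and an adjusted p under 0.05. Mutations rose at 90 positions (5.07%) and fell at 1 (0.0563%). Most responses were small: the median difference passed 1 point at 52 of the 148 positions for stops and at 27 of the 90 for mutations, and reached 5 points at 12 and 4. The median of these median differences was 0.594 points for stops and 0.710 for mutations, while over all 1776 positions it was 0.0 and 0.0101. Of the positions called higher, 106 for stops and 76 for mutations were higher with DMS in all 8 pairs, which held at 120 (6.76%) and 107 (6.02%) of all 1776 positions. A neighbour called higher too was found at 56 of the 148 for stops (37.8%) and 35 of the 90 for mutations (38.9%), against 15.8% and 9.57% of all 1776 positions.

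These counts depended on single pairs. The count of 148 was 86 without pair 1, 98 without pair 2, 94 without pair 3 and 77 without both pairs whose untreated libraries held many zeros. The count of 90 was 52 without pair 7, 42 without pair 8, 57 without the pairs with many zeros and 45 without series Y, whose removal left the stops at 148. An exact sign-flip test of each position over 8 pairs called none after adjustment, with 242 positions higher for stops and 250 for mutations at an unadjusted p under 0.05. With 8 pairs this test cannot give a p below 0.00781, and its smallest adjusted p was 0.0846 for stops and 0.123 for mutations. Its lack of calls therefore does not decide whether the limma calls hold.

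Responses were spread along the RNA. In windows of 200 nt, stops rose at 24 positions in 1 to 200, 23 in 201 to 400, 16 in 401 to 600 and 9 in 601 to 800. They rose at 15 in 801 to 1000, 18 in 1001 to 1200, 11 in 1201 to 1400, 21 in 1401 to 1600 and 11 in the 176 positions from 1601. Mutations rose at 15 positions in each of the first 2 windows and at 3 in the last, with 7 to 12 in each of the others. The window from 601 and the last one held the most zeros. They made up 10.3% and 25.3% of stop values in the median library, against at most 5.0% in the other windows. Of the 1776 positions, 1038 lay in a stretch where over 25% of values within 25 nt were 0 in some library and readout. Outside such stretches a refit of the other 738 positions called 75 higher for stops and 60 for mutations.

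**Figure D2:**
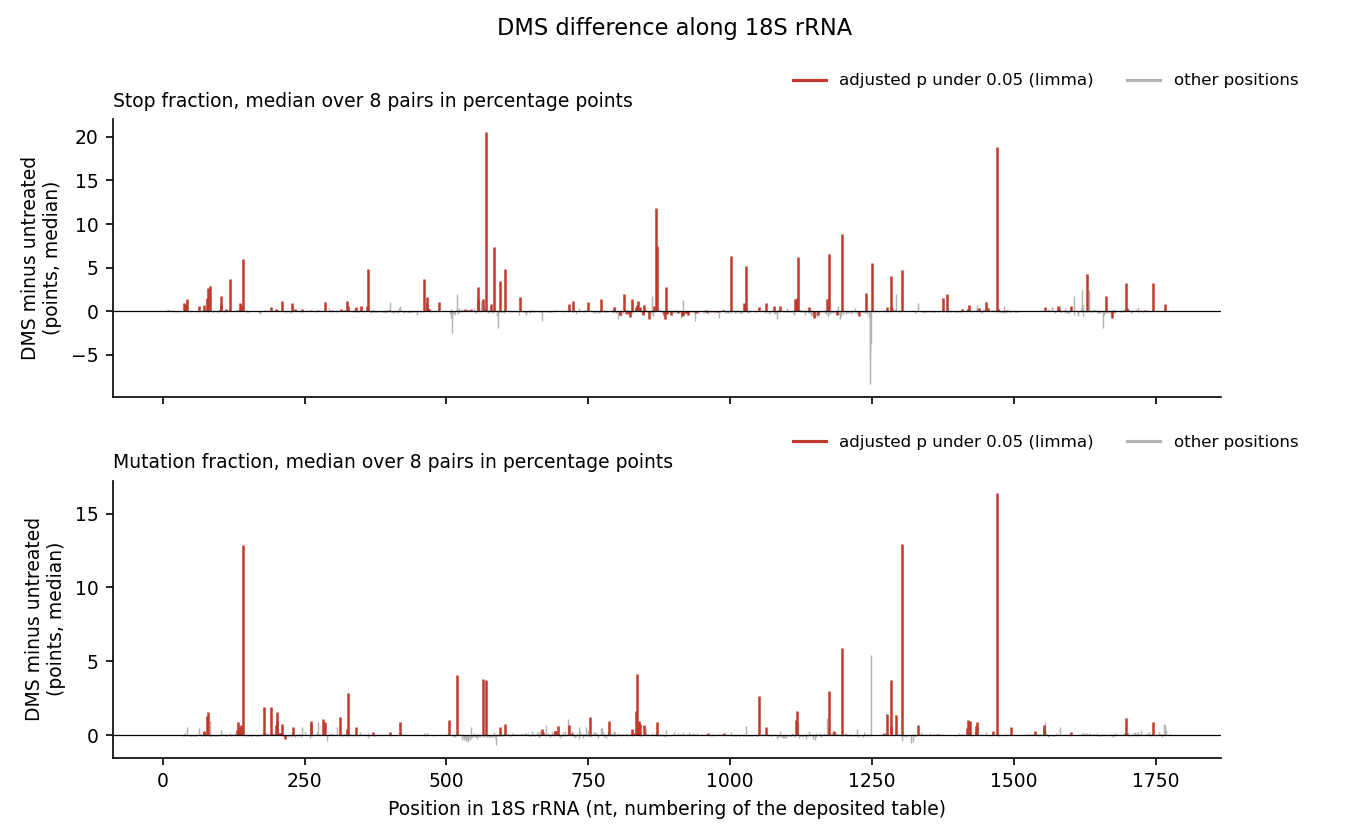
Median difference over 8 pairs (DMS minus untreated, percentage points) at each of 1776 positions of 18S rRNA, for stops and for mutations, with positions called by limma marked. The tallest stop values are at 569 (20.5 points) and 1471 (18.8 points), and the tallest mutation value at 1471 (16.4 points).

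Summed over the whole RNA the response was slight. The mean over positions rose by 0.0875 ± 0.0477 points (SD, n = 8) for mutations and was higher in 8 of 8 pairs (exact sign-flip test over pairs, two-sided p = 0.00781, the smallest it can give being 0.0078). That test treats the 8 pairs as independent, while some may share RNA and, by the sample titles, they come from 4 kinds of reverse transcription with letters A and B. For stops the mean difference was 0.0706 ± 0.138 points (SD, n = 8), higher in 5 of 8 pairs, and did not pass the same exact test (p = 0.18). The lowest stop value, -0.132 points, came from pair 4, and the untreated library of pair 4 had the highest mean stop fraction of all 16.

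The largest stop response was at position 569. Its untreated libraries ranged from 0% through a median of 0.367% to 10.7%, and its DMS libraries from 13.4% through 23.0% to 29.0%. The groups did not overlap, and the highest untreated value was that of pair 5. The difference was 20.0 ± 6.04 points (SD, n = 8), positive in every pair, with a log2 effect of 5.09 ± 0.76 (SE, adjusted p = 0.0034). At 74.5% the share of zeros near 569 was high in at least 1 library and readout. Among the other leading stops it was above 25% near 1197 (90.2%), 1174 (86.3%), 1119 (76.5%) and 584 (64.7%). The same held near 870 and 871 (56.9%), 1250 (49.0%) and 1002 (39.2%), but not near 1028 (21.6%), 142 (19.6%) and 1471 (2.0%). The share takes the readout with more zeros. Between 801 and 1000, where 870 and 871 lie, stop values at 0 made up at most 8.0% in any library, against up to 55.5% for mutations.

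Position 1471 had a stop response of a similar size in the median and the widest spread. Untreated libraries lay between 0.0972% and 5.09% with a median of 0.242%, and DMS libraries between 2.53% and 41.9% with a median of 19.05%. The groups overlapped. Per pair the differences were 39.7, 41.8, 26.8 and 28.5 points in series X, 0.877 and -0.934 in Y, and 10.8 and 9.82 in Z, so the differences were near 0 in Y alone. The effect passed over all pairs (4.66 ± 0.97, adjusted p = 0.018) but not without pair 1 (0.055) or without pair 4 (0.051). The difference between name series itself passed (adjusted p = 0.0097, limma F test, chosen after seeing the data).

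Positions 870 and 871 are adjacent and both responded by stops. At 870 untreated libraries ranged from 0.663% through 1.08% to 3.77% and DMS libraries from 7.82% through 12.7% to 15.6%, a median difference of 11.8 points (adjusted p = 0.00052). At 871 the ranges were 0.216% through 0.670% to 4.46% and 4.35% through 8.87% to 13.7%, a median difference of 7.45 points (adjusted p = 0.0066). The groups overlapped at 871, where the untreated library of pair 5 exceeded the lowest DMS library, and did not overlap at 870. Series X gave the larger response at 871, with 10.8 to 13.2 points per pair against 2.04 to 4.13 in Y and Z, and name series differed at 870 (adjusted p = 0.039) and at 871 (0.047).

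The other 8 leading positions had median differences between 5.17 and 8.88 points, and at none of them did the groups overlap. Position 1197 rose from an untreated median of 0.403% to 9.60% (adjusted p = 0.0012), position 584 from 0.837% to 8.73% (0.00043), and position 1174 from 0.579% to 6.81% (0.0068). Position 1002 rose from 0.350% to 6.62% (adjusted p = 0.00016), position 142 from 0.264% to 6.20% (0.0023), and position 1028 from 0.461% to 5.46% (0.00089). All 6 had an untreated median under 1%. Positions 1119 and 1250 had an appreciable stop fraction without DMS, with medians of 2.85% and 2.09%, and rose to 9.65% (adjusted p = 0.0016) and 7.40% (0.0003). Position 1250 was the most even of the leading stops, with untreated libraries between 1.44% and 3.03%, DMS libraries between 6.79% and 8.14%, and a difference of 5.34 ± 0.952 points (SD, n = 8).

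**Figure D3:**
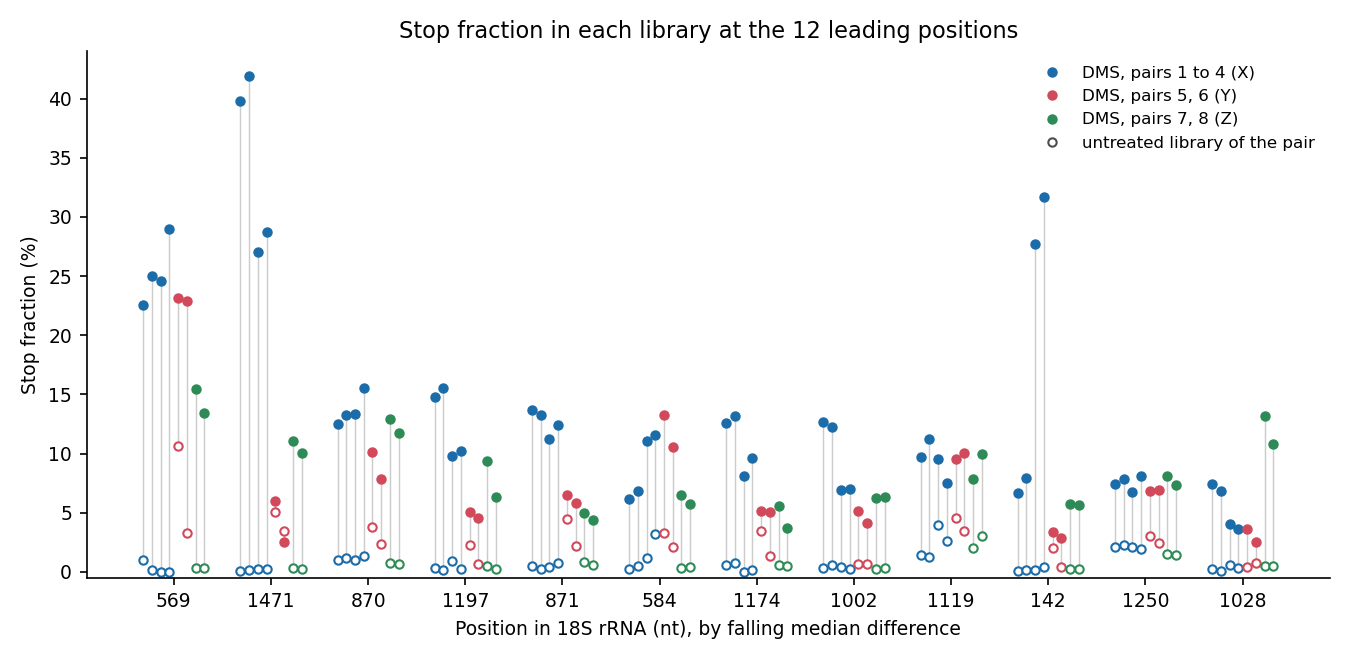
Stop fraction in percent at the 12 leading stop positions in each of the 8 untreated and 8 DMS libraries. Groups overlap at 871 and 1471 and at none of the other 10; the untreated library of pair 5 is the highest untreated one at most of the positions.

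All 12 leading stops remained called without series Y, and 11 or 12 when 1 pair was left out, 1471 being the one lost. With no log 10 of 12 were called, 142 and 1471 being lost, and within the 2 pairs of series Y none was called, though 11 of 12 were higher with DMS. The next positions below the 12 were 361 and 604, with median differences of 4.89 and 4.83 points. The 12 positions were picked for their size in these same libraries, so that their non-overlap describes them and is not a separate test. Groups with DMS above untreated and no overlap occurred at 57 of all 1776 positions (3.21%) for stops.

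Mutations responded most at position 1471. Untreated libraries ranged from 0.0529% through a median of 0.156% to 2.56%, and DMS libraries from 11.2% through 16.98% to 17.8%. No untreated library came near a DMS one. The difference was 15.2 ± 2.66 points (SD, n = 8), between 11.0 and 17.7 in every pair, with a log2 effect of 5.39 ± 0.47 (adjusted p = 0.00087). At 1471 the response was thus present in mutations in every pair, and in stops in all but those of series Y.

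Positions 1303 and 142 followed with median differences of 12.9 and 12.8 points. At 1303 untreated libraries ranged from 0.0948% through 0.134% to 0.916% and DMS libraries from 0.748% through 13.3% to 16.7% (adjusted p = 0.004). At 142 the ranges were 0.05% through 0.176% to 5.12% and 4.68% through 13.5% to 15.2% (adjusted p = 0.004). The groups overlapped at both: the DMS libraries of pairs 1 and 2 were low at 1303, with differences of 0.733 and 0.615 points, and the untreated library of pair 5 was high at 142. At 1197 the median difference was 5.87 points (adjusted p = 0.0066), with 9.88 to 12.5 points per pair in series Y and Z and 0.187 to 1.87 in series X.

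The other 8 leading mutation positions had median differences between 2.64 and 4.16 points. Pairs 3 and 4 stayed low at 5 of them. At 518 those pairs gave 0.197 and 0.236 points against 2.85 to 7.27 in the other pairs (adjusted p = 0.014), and at 565 they gave 0.222 and 0.306 against 3.69 to 4.87 (0.014). At 836 they gave -0.101 and 0.108 against 3.18 to 6.22 (0.04). Positions 327 (adjusted p = 0.014) and 1051 (0.0087) had the same order, with at most 0.392 and 0.217 points in pairs 3 and 4 and at least 1.88 and 2.57 in the others. Pairs 1 and 2 were instead the lowest at 569, with 0.168 and 0.132 points against 1.37 to 8.41 (0.04), and at 1174, with 0.0812 and -0.0968 against 0.975 to 4.70 (0.038). At 1284 all 4 pairs of series X were low, at 0.361 to 0.715 points against 6.72 to 7.91 in Y and Z (0.016). Pairs 1 and 2 and pairs 3 and 4 share a name stem, so the stems alone do not sort these patterns. The highest share of zeros nearby was 76.5% at 565, 70.6% at 836, 37.3% at 1051, 27.5% at 327 and 0.0% at 1284.

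**Figure D4:**
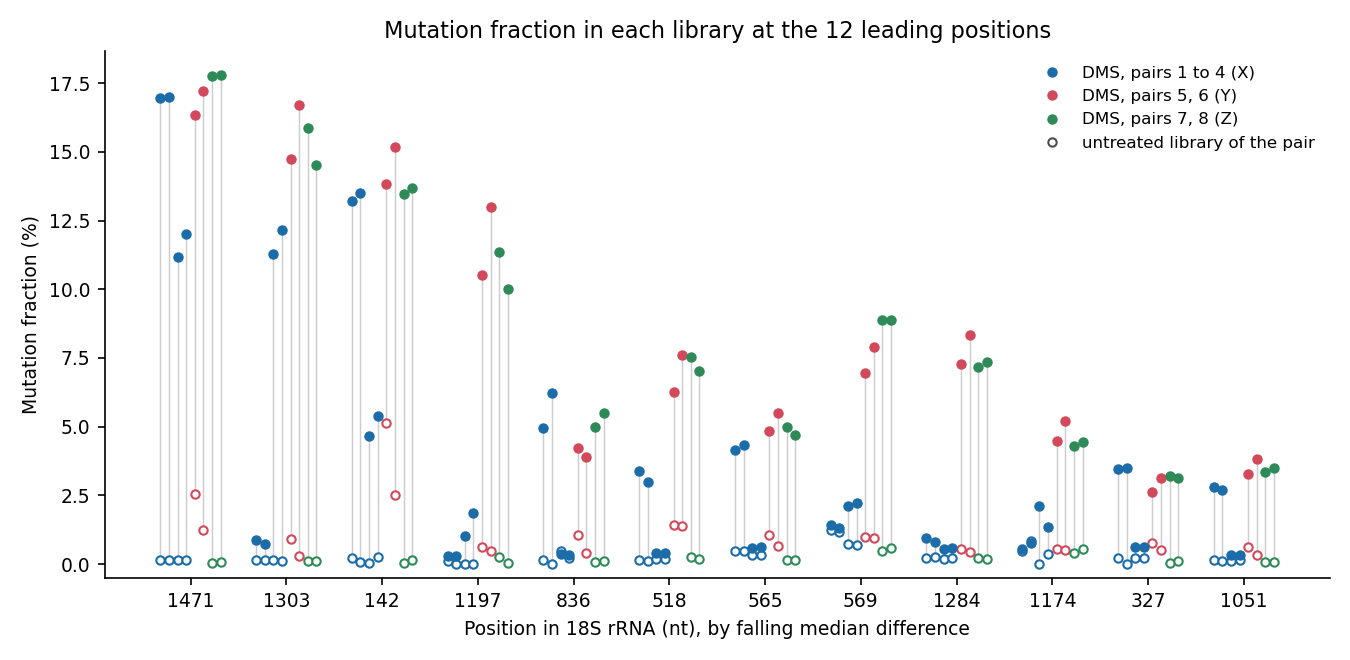
Mutation fraction in percent at the 12 leading mutation positions in each of the 8 untreated and 8 DMS libraries. At 518, 565 and 836 the DMS libraries of pairs 3 and 4 lie far below the other 6, and the groups do not overlap at 1471 and 569.

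Without series Y, 4 of the 12 leading mutations stayed called (142, 1197, 1303 and 1471). When 1 pair was left out 9 to 11 did, with 569, 836 or 1174 lost. With no log 7 of 12 were called, and 3 of 12 within series X and none within series Y. In each of these fits 12 of 12 were higher with DMS, though the positions were picked for that direction. The next positions below the 12 were 191 and 179, at 1.89 and 1.88 points. Groups that did not overlap occurred at 20 of all 1776 positions (1.13%) for mutations. No position passed a test of the difference between name series in mutations (limma F test, 136 positions at an unadjusted p under 0.05), against 26 (1.46%) in stops. Within series X, pairs 1 and 2 differed from pairs 3 and 4, as at 1303, and this test counts that spread as error. At 1284, where X lay below Y and Z, its adjusted p was 0.13. The absence of calls thus does not show that mutations were alike across name series.

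Stops and mutations come from the same libraries, so their values are set side by side pair by pair. Of the 12 leading stops and 12 leading mutations, 5 positions were in both sets: 142, 569, 1174, 1197 and 1471. At 1303 stops gave 18.7 and 20.3 points in pairs 1 and 2, 6.41 and 6.86 in pairs 3 and 4, -2.73 and -0.188 in pairs 5 and 6, and 3.11 and 2.53 in pairs 7 and 8. The mutation differences at 1303 were 0.733 and 0.615 in pairs 1 and 2, 11.2 and 12.1 in pairs 3 and 4, 13.8 and 16.4 in pairs 5 and 6, and 15.8 and 14.4 in pairs 7 and 8. A position with hardly any mutation response in pairs 1 and 2 thus had its largest stop response there. Stops at 1303 passed the test over all pairs (adjusted p = 0.029, higher in 6 of 8) and differed between name series (0.016).

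At 142 pairs 3 and 4 were the ones that stood out. Their stop differences were 27.5 and 31.3 points against 1.40 to 7.78 in the other 6 pairs, and their mutation differences were 4.63 and 5.16 points against 8.72 to 13.5. At 1197 the stop differences were 14.4 and 15.4 points in pairs 1 and 2, 8.84 and 9.98 in pairs 3 and 4, 2.81 and 3.85 in pairs 5 and 6, and 8.92 and 6.05 in pairs 7 and 8. Mutations at 1197 were 0.187 and 0.301 points in pairs 1 and 2, 1.03 and 1.87 in pairs 3 and 4, and 9.88 to 12.5 in the other 4. Pairs 1 and 2 thus had larger stop and smaller mutation differences than pairs 3 and 4 at 1303 and 1197, and smaller stop and larger mutation differences at 142.

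**Figure D5:**
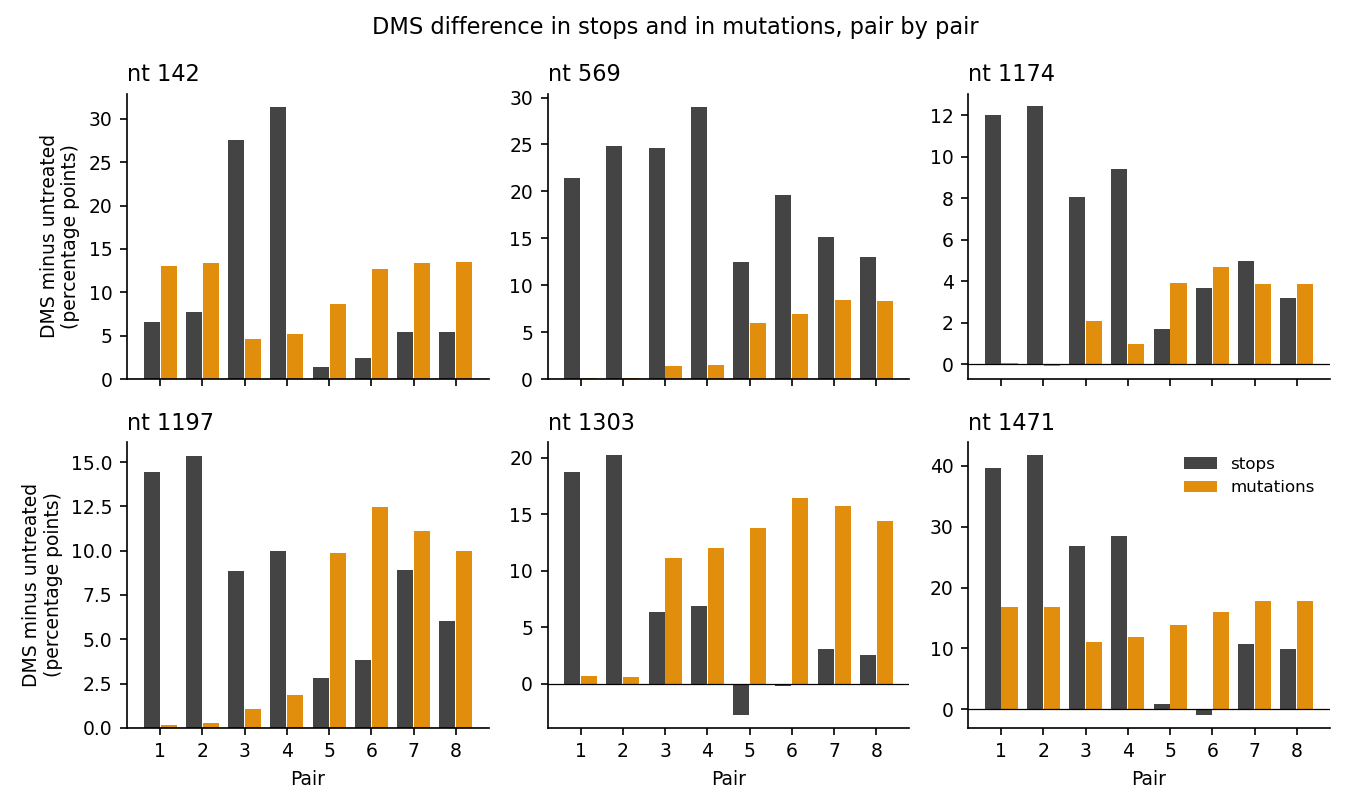
DMS minus untreated in percentage points for stops and for mutations in each of the 8 pairs, at positions 142, 569, 1174, 1197, 1303 and 1471. At 1303 stops are highest in pairs 1 and 2, where mutations are lowest; at 1471 the mutations stay between 11.0 and 17.7 points while stops run from -0.934 to 41.8.

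Over the 19 positions that led in either readout, the mutation differences were 20.7%, 20.0%, 15.9% and 15.1% of the summed differences of both readouts in pairs 1 to 4. They were 72.4% and 63.6% in pairs 5 and 6, and 49.3% and 52.0% in pairs 7 and 8. These are not shares of DMS events, since the fractions of the readouts are not parts of the same whole. At 1248, for example, the DMS library of pair 8 had 71.11% stops beside 46.15% mutations. The summed differences also hold negative terms, the largest being -21.5 points of stops at 518 in pair 5. Without 518 the other 18 positions gave 15.7% to 20.0% in pairs 1 to 4, 59.9% in both pairs of series Y, and 47.9% and 50.9% in pairs 7 and 8. The 3 name series did not overlap either way, which is a description over positions chosen in the same libraries. The raised untreated values of series Y are subtracted in its differences, and their part in these values was not tested. The difference between the stop and the mutation response varied between name series at 48 of 1776 positions (2.70%, limma F test, adjusted p under 0.05), among them 1284 (adjusted p = 0.00057), 871 (0.0024), 1471 (0.0027) and 1197 (0.017). At 1284 stops gave 4.80 to 6.59 points in series X and 1.11 to 3.18 in Y and Z, beside mutation differences of 0.361 to 0.715 and 6.72 to 7.91. Since the library names give no enzyme, how these groups relate to the kinds of reverse transcription was not tested.

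The stop difference in points exceeded the mutation difference at 25 positions (1.41%) and was below it at 14 (0.788%) by limma on the difference of differences, with 33 and 8 without series Y. Of the 25, stops were called higher at 23. Of the 14, mutations were called higher at 9, while 4 (896, 916, 1188 and 1228, picked after their values were seen) had stops called lower and no call in mutations. Among the 6 named for the size of their stop excess, 1250 had the smallest adjusted p. There no library exceeded 0.0866% mutations and the stop response was larger by 5.32 ± 0.32 points (SE, adjusted p = 0.00013), a p shared by 629 with a smaller excess of 1.68 ± 0.09. Position 361 had stop differences of 2.25 to 5.17 points and mutation differences of -0.0768 to 0.365 (adjusted p = 0.0012). The excess of stops was 10.4 ± 1.24 points at 870 (adjusted p = 0.0049), 6.97 ± 0.75 at 584 (0.003), 6.87 ± 1.14 at 1002 (0.023) and 5.56 ± 0.76 at 1119 (0.0093). The call at 1002 was lost when any of 5 of the 8 pairs was left out, and those at 870 and 1002 without the pairs with many zeros (0.19 and 0.14).

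Positions with more mutation than stop response had smaller sizes. At 504 untreated libraries had 0.0912% to 0.356% mutations and DMS libraries 1.06% to 1.44%, with no overlap, while no library exceeded 0.187% stops (mutation response larger in 8 of 8 pairs, adjusted p = 0.00024). At 1553 mutations went from a median of 0.238% to 0.991%, also with no overlap, and the highest stop value of any library was 0.155% (adjusted p = 0.0093). At 283 the stop fraction stayed at or below 0.00147% in all 16 libraries, the lowest of the named positions, and mutations rose from a median of 0.232% to 1.37% (adjusted p of the difference between readouts 0.041). Positions 202 (0.036), 754 (0.046) and 786 (0.045) completed the 6 named in this direction, with mutation differences of 1.55, 1.24 and 0.929 points in the median. Those at 202, 754 and 786 were lost in 7 of 8 cases when 1 pair was left out and that at 283 in 6 of 8, and all 4 without series Y (adjusted p between 0.087 and 0.15). The 39 calls hold for differences in points: with log2 effects in their place none was called in either direction.

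Decreases with DMS were few and small. Of the 29 positions with lower stops none had a median difference beyond 1 point, 23 lay between 801 and 1000, and none lay outside stretches with many zeros. Such stretches are set by the readout with more zeros. Between 801 and 1000 stop values at 0 made up 0.0% in the median library and at most 8.0% in any, against up to 55.5% for mutations. The 4 lowest with 1 sign in at least 7 of 8 pairs were 886 (-0.918 points, adjusted p = 0.044), 858 (-0.851, 0.031), 1148 (-0.721, 0.018) and 823 (-0.661, 0.04), where the groups overlapped and 0 or 1 pair was higher with DMS. Position 1674, at -0.770 points, was called too but was higher in 2 pairs. The number of lower stops was 3 with no replicate block and 11 without series Y, while scaling each library to 1 common median gave 82 lower and 141 higher. Position 216, the only one with lower mutations, went from an untreated median of 0.958% to 0.693% and was lower in 8 of 8 pairs (adjusted p = 0.049), a call that was lost when any of the 8 pairs was left out.

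The positions with the highest untreated medians in a readout had no called DMS difference in it. At 1248 stops ranged from 66.2% through 80.2% to 94.9% in untreated and from 67.6% through 75.3% to 94.6% in DMS libraries (adjusted p = 0.7). Mutations there ranged from 4.59% through 19.4% to 45.0% and from 5.88% through 26.5% to 46.2% (adjusted p = 0.14). At the neighbouring 1247 stops lay between 13.1% and 74.4% untreated and were lower with DMS in 8 of 8 pairs, by 9.06 ± 6.07 points (SD, n = 8), which did not pass (adjusted p = 0.079). At 1561 mutations were between 97.8% and 99.9% in all 16 libraries and did not pass (adjusted p = 0.75), nor did those at 537, with untreated values of 1.59% to 9.83% (0.69). Position 1248 is, in the human numbering of 18S rRNA, the site of a heavily modified uridine, but the table names no base here.

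Position 518 combined both kinds of signal. Its stops were high without DMS, from 3.51% through 17.5% to 64.3%, and were between 5.45% and 69.5% with it (adjusted p = 0.99). Its mutations rose from an untreated median of 0.188% to 4.84%, in 8 of 8 pairs (adjusted p = 0.014). The stop seen without DMS and the mutation that rose with DMS therefore stood at the same position of the table, with 58.8% zeros nearby in the highest library and readout. What gave the untreated stop was not tested.

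The 4 libraries of the Mn experiment were not part of any fit. In their pair without Mn2+ the DMS library was above the untreated one at 12 of the 12 leading stops and at 12 of the 12 leading mutations, while it was above at 38.8% and 48.9% of all positions with values. At 142, for example, that pair had 0.887% and 6.63% stops and 0.378% and 19.6% mutations. This is 1 library per group, with no replicate check.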

How the data were processed

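The authors deposited 1 stop and 1 mutation fraction per position of every library, besides columns from which the control's value was subtracted. The submitters' processing notes list cutadapt and Bowtie2. Their versions, the rule for counting an event, the denominators and the numbers of reads are not given in the sources used here. PCR copies may be counted repeatedly, and reads lost along the RNA may change a fraction. The deposited control name pairs each DMS library with its untreated one: the deposited differences equalled the subtraction within 1.0e-13 points, so the pair was the block. A further 9 libraries of another target were mapped to no sample and not used.

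Fractions were multiplied to percent. The test was limma 3.58.1 (R 4.3.3, trended empirical Bayes) on log2(percent + 0.1) over 1776 positions with Benjamini-Hochberg adjustment, and, for stops minus mutations, limma on the per-pair difference in points. No filter on low values was used. The code was tested on simulated data. The positions named were the 12 highest and 4 lowest called median differences per readout with 1 sign in at least 7 of 8 pairs, the 6 largest called differences between readouts in each direction and the 3 highest untreated medians; both readouts are given at each. Those just below the limit, and stops at 1303 and 1284, were described after their values were seen. The members, rules and tests were chosen with earlier results of these data known. Alternatives were other pseudocounts, no log, no pair block, an exact sign-flip test, other sets of positions, scaling to a common median, single pairs left out and values within name series. The series tests, and fits without series Y or without pairs with many zeros, were chosen after seeing the data. The planned comparison of A and C with G and U was not run because the 18S sequence was not analysed here. Tables and figures were made in Python 3.11.15 with numpy 2.4.6, pandas 2.3.3, Matplotlib 3.10.9 and SciPy 1.17.1.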

Additional observations from a re-analysis of the deposited data

Results flagged for a closer look

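Of 127 groups of 8 library values examined, 9 had 1 library far from the others by Dixon's test, which chance gives in about 1 of 20 groups. In 8 of them it was the untreated library of pair 5. Its stop fraction was 1.998% at 142, 10.65% at 569, 4.465% at 871, 3.444% at 1174 and 2.282% at 1197, and its mutation fraction was 1.056% at 836, 0.916% at 1303 and 2.557% at 1471. The remaining one was the DMS library of pair 6, in which 16.55% of stop values were 0.

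The response differed between the 3 name series in 10 of 74 results tested (limma F test, adjusted over 1776 positions, chosen after seeing the data). For stops the adjusted p was 0.0097 at 1471, 0.016 at 1303, 0.039 at 870, and 0.047 at 871 and at 1284. For stops minus mutations it was 0.00057 at 1284, 0.0024 at 871, 0.0027 at 1471, 0.017 at 1197 and 0.031 at 361. What the name series stand for was not tested.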

How the results depend on the processing

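The number of reads is unknown, so small differences cannot be told from counting error. For stops, positions higher and lower numbered 148 and 29. With no replicate block there were 3 lower. A pseudocount of 1% gave 18 lower, no log gave 72 higher and 13 lower, and a mean of at least 0.5% gave 87 higher. Outside stretches with many zeros 75 were higher and 2 lower, and scaling to a common median gave 82 lower. Scaling moved the median log2 effect by -0.09 for stops and -0.12 for mutations, and the lower part of stop calls from 16.4% to 36.8%. Within series X 0 were lower, within Y 0 were called either way, and within Z 10 were lower. Without the pairs with many zeros 77 were higher and 14 lower, and without series Y 11 were lower. Leaving out 1 pair gave 86 to 146 higher and 13 to 20 lower.

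For mutations, 90 were higher and 1 lower. A pseudocount of 0.01% gave 59 and 0, scaling 59 and 6, series X 13 and 0, series Y 0 and 0, no pairs with many zeros 57 and 0, and no series Y 45 and 0. With no block, a pseudocount of 1%, no log, all positions or outside zeros 0 were lower, with a mean of at least 0.5% 4, and in Z 2. Leaving out 1 pair gave 42 to 79 higher and 0 to 1 lower.

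For stops minus mutations, 25 were higher and 14 lower. Log2 effects gave 0 and 0, no pairs with many zeros 12 and 4, and no series Y 8 lower. Leaving out 1 pair gave 12 to 31 and 3 to 12. The exact sign-flip test gave 0 for all 3 after adjustment, the smallest adjusted p being 0.0846, 0.123 and 0.137. Its smallest unadjusted p was 0.00781 for each, the least that 8 pairs allow. At unadjusted p under 0.05 it gave 242 higher and 144 lower for stops, 250 and 38 for mutations, and 114 and 191 for stops minus mutations.

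The mean stop difference of 0.0706 points became -0.0001466 with the median over positions and 0.0223 without the 10 most changed positions, and the mutation mean of 0.0875 became 0.0143 and 0.0511, with exact p = 0.0156 and 0.00781. The stop effect at 1471 was -0.11 within series Y (log2). At single positions, 643 of 887 refits kept direction and side of the threshold, 238 lost the call and 5 gained it. The cause was not tested. Other summaries and stop offsets for A and C against G and U were not run.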
